A study of Mus musculus with 27 samples.

Results

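Of the 14418 H3K27ac peaks listed for Acly-knockout hepatocytes after hypoxia-reperfusion, 4280 shared no base with any H3K27ac peak of wild-type hepatocytes, either after hypoxia-reperfusion or in normoxia. These 4280 regions, 29.7% of the knockout list (95% Wilson interval 28.9 to 30.4), are called KO-only peaks here, and the remaining 10138 are called the other knockout peaks. The members were chosen by the positions of the H3K27ac peaks themselves, so the absence of a wild-type H3K27ac peak, the place of the members in the knockout list and the genes they add to the wild-type lists are descriptions. H3K9ac, FLAG-ACLY and DNA sequence took no part in the choice.

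The study asked how ATP citrate lyase (ACLY) in the nucleus bears on ischemia-reperfusion injury of the liver. Primary hepatocytes were isolated from WT mice (wild type) and from Alb-cre:Aclyf/f mice (KO, labelled AclyKO), in which both Acly alleles are floxed and the albumin promoter drives the recombinase in hepatocytes. WT cells in normoxia, WT cells in hypoxia-reperfusion (HR) and KO cells in HR were profiled by CUT&RUN, the culture condition starting 24 h after isolation, and no KO library in normoxia was used here. Each antibody had 1 library per condition, the labels do not say how many animals gave the cells, and no difference between conditions could be tested. FLAG-ACLY was mapped in WT cells only, and the sources used here do not say how the tag was introduced. Intervals on shares are 95% Wilson intervals and cover counting error only.

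Acetylation of lysine 27 of histone H3 marks active promoters and enhancers, and acetylation of lysine 9 sits mostly at active promoters, close to the start of transcription. ACLY splits citrate into acetyl-CoA and oxaloacetate outside mitochondria, and the acetyl-CoA serves lipid synthesis and histone acetyltransferases. CUT&RUN cuts DNA beside an antibody bound in intact nuclei, so that the released fragments report where the antibody's target lay.

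The KO and WT lists differed in form. In WT HR and in WT normoxia, 100% of H3K27ac peaks had both ends on a 10 bp grid, against 0.943% in KO HR. For H3K9ac the shares were 99.99% in WT HR, 99.98% in WT normoxia and 1.01% in KO HR. The median peak was 3845 bp wide in KO HR H3K27ac, 7410 bp in WT HR and 10340 bp in WT normoxia, while the lists covered 81.0, 87.5 and 81.5 Mb. Within each of the 7 lists with more than 1 peak, the peak maxima were whole multiples of 1 step (all values within 0.05 of a step), and the step was 5.73 signal units in KO HR H3K27ac against 0.338 in WT HR and 0.286 in WT normoxia. No source used here says what a step stands for, the depth is unknown, and signal outside the listed peaks was not analysed here. Genotype and the way the lists were made cannot be told apart in any count that sets the KO list against a WT list. In the other direction, 163 of 8252 WT HR peaks (1.98%, 1.70 to 2.30) shared no base with a KO H3K27ac peak.

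Some KO-only peaks held whole promoters, both ones with few CpG pairs and ones with many. The following 7 promoters lie wholly within a KO-only peak and are examples. They were picked from 32 such promoters, of genes in the lists described below that no WT H3K27ac peak reached. They are not a representative sample of the members. They run 5′ to 3′ on the strand of the gene from 250 bases before the start site to 50 after it, and were read from RefSeq's GRCm38.p6 table, the assembly that mm10 names. Capitals mark matches, on either strand, to 10 short motifs: the AP-1 motif TGANTCA, the cyclic AMP response element TGACGTCA, the C/EBP motif TTGCGCAA, the HNF4 motif CAAAGTCCA, the PPAR-RXR direct repeat, the FOXA motif TGTTTAC, the E-box CACGTG, the NF-Y box CCAAT, the GC box GGGCGG and the TATA box TATAAA. None of these motifs contains another, but matches can overlap, as CACGTG and GGGCGG do in the Fgf21 promoter.
Ugt1a1, the enzyme that conjugates bilirubin (chr1:88211709-88212008, plus strand, no match): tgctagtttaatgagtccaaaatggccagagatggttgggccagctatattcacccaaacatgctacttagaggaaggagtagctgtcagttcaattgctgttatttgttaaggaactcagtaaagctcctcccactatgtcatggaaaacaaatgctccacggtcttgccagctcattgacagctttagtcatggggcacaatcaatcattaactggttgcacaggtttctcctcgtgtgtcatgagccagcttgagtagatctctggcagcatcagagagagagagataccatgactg
C9, the pore-forming component of complement (chr15:6445096-6445395, plus strand): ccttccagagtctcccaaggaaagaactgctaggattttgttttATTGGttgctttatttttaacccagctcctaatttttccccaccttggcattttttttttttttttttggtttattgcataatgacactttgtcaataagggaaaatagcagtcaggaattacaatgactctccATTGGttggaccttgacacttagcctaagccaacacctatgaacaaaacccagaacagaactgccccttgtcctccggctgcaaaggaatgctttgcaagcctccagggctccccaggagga
F10, the clotting protease at which both arms of coagulation meet (chr8:13037058-13037357, plus strand): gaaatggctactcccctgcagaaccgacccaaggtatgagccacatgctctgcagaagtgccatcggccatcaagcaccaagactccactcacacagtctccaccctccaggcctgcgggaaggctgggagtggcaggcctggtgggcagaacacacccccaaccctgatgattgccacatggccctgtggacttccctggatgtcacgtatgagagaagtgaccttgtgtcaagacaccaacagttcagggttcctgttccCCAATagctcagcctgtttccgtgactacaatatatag
Orm2, an orosomucoid of the acute phase (chr4:63362199-63362498, plus strand): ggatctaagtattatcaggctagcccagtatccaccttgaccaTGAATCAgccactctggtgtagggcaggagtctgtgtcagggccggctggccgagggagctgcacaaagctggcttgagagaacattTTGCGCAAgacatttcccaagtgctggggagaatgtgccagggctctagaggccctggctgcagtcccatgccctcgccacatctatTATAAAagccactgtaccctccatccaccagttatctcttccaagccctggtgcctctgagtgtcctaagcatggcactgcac
Fgf21, a hormone that the liver secretes in fasting (chr7:45615441-45615740, minus strand): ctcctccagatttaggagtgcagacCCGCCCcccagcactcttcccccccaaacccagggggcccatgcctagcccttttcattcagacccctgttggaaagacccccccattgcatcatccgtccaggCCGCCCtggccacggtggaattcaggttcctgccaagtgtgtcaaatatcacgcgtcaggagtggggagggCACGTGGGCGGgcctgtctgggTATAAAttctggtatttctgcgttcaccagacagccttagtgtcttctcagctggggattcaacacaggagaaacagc
Hsd17b7, an enzyme of cholesterol synthesis (chr1:169969156-169969455, minus strand): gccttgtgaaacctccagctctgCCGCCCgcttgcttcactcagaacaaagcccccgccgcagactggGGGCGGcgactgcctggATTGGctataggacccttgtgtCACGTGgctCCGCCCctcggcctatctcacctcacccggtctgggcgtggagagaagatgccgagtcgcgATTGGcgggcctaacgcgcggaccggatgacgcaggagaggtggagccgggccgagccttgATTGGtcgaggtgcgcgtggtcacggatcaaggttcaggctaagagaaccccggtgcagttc
Hdac2, a histone deacetylase (chr10:36974294-36974593, plus strand): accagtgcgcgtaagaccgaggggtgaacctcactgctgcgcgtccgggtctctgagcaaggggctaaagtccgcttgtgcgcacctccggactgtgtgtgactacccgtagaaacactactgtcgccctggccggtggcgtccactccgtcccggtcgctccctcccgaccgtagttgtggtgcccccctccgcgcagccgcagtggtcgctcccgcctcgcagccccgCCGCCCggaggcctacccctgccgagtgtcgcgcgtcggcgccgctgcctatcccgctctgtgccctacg
The first 4 hold few CpG pairs: 2 in Ugt1a1, 1 in C9, 5 in F10 and 4 in Orm2. Fgf21 holds 9, Hsd17b7 27 and Hdac2 36. Over all promoters in members, 77.0% were CpG-rich by the measure given below. Orm2 carries a TGANTCA match (with the letters TGAATCA), a C/EBP match and a TATAAA match in the same 300 bases. Hsd17b7 carries 3 GC boxes, 3 CCAAT boxes and an E-box. The C/EBP motif seen in Orm2 occurred in only 2 of the 1474 promoters in members. A match is a run of letters and does not show that a factor was bound.

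The members were narrow and of low signal. Their median width was 2675.5 bp (quartiles 2177 and 3370, range 861 to 15746), against 4701 bp in the other knockout peaks, and together they covered 12.5 Mb, or 15.4% of the bases in the KO list. Ranked by total signal, the quantity the authors give for each peak, the members' median stood at percentile 20.3 of the KO list and that of the other peaks at 64.7. Of the 4280 members, 4091 lay below the middle of the list and 189 above it. With the list cut into 10 equal bins of rising signal, members made up 74.6% of the lowest bin (1076 of 1442 peaks), 25.9% of bin 5 and 0.0693% of the highest, where the peak at Ugt1a1 (rank 994, rank 1 being the largest) was the only member. The median maximum was 45 steps in members and 75 steps in the other peaks.

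**Figure D1:**
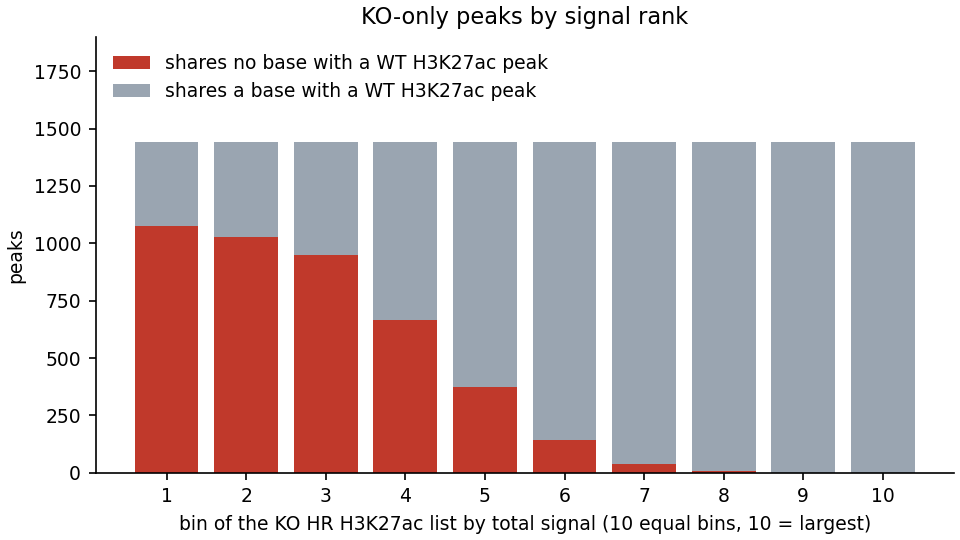
KO HR H3K27ac peaks in 10 equal bins by total signal (x axis, 10 being the largest), with the number of peaks on the y axis. Red is the peaks sharing no base with a WT H3K27ac peak, which make up 1076 of 1442 in the lowest bin and 1 of 1442 in the highest, and grey is the other peaks.

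Most members stood well apart from WT H3K27ac. The median gap to the nearest WT H3K27ac peak was 29184 bp (quartiles 8311 and 87612). A gap of at most 1000 bp separated 165 members (3.86%) from a WT peak, 694 were within 5000 bp, and 972 (22.7%) were more than 100 kb away. At the border of the rule, the 5 closest members lay 8, 8, 24, 24 and 26 bp from a WT peak, and the 5 other knockout peaks with the least contact shared 7, 7, 11, 13 and 16 bp with one. Few peaks were near that border: 17 members had a gap of at most 100 bp, 9 of the other peaks shared at most 100 bp, and 8514 of the 10138 other peaks were wholly covered by WT peaks. The 2 members with the smallest gap lay outside genes at chr4:62062279-62064417 and in Frs2, an adaptor of growth factor receptors, at chr10:117116652-117124292. The 2 with the largest gap were both on the Y chromosome, where the WT lists hold 3 (HR) and 2 (normoxia) H3K27ac peaks.

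**Figure D2:**
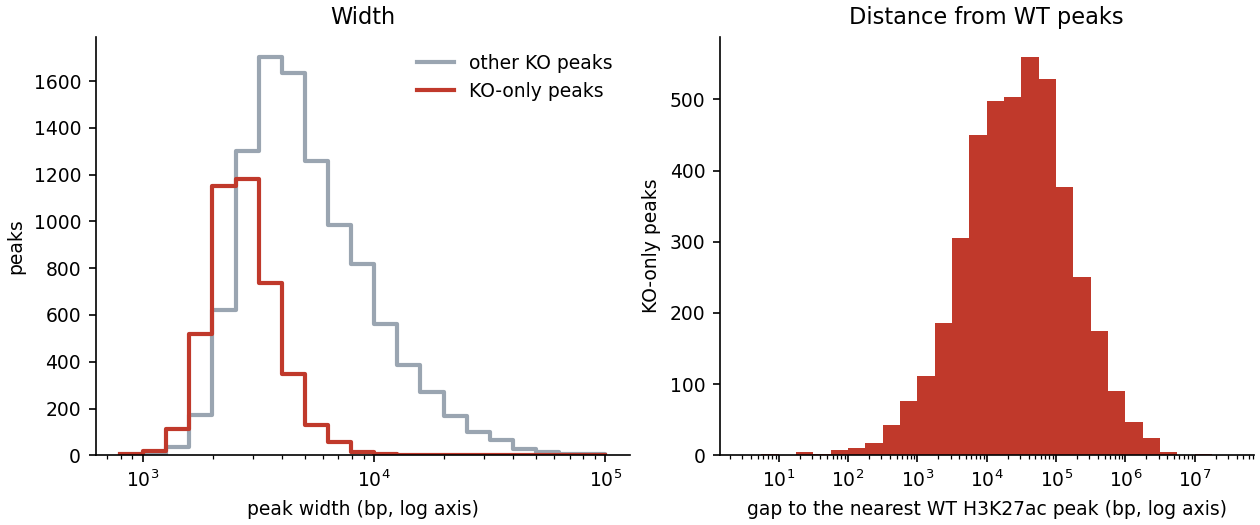
Left, widths of KO-only (red) and other (grey) KO HR H3K27ac peaks in bp on a log axis, with medians of 2675.5 and 4701 bp. Right, gap in bp (log axis) from each KO-only peak to the nearest WT H3K27ac peak, with a median of 29184 bp.

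Members were mostly solitary. Joined across gaps of up to 12.5 kb, they formed 3908 groups, of which 3589 held 1 member, 273 held 2 and 46 held 3 or more. The group with the most members, 5, lay in Thrb, a thyroid hormone receptor gene, at chr14:17856426-17903059. The 5 groups of 4 lay at Tex14, at Serping1, in Dpyd, at Ctsc and at Mogat2. Dpyd, the first enzyme of pyrimidine breakdown, was touched by 13 members across its 870816 bp, ahead of Thrb with 8 and Rbfox2, a splicing factor gene, with 7. All 3 genes also held WT H3K27ac peaks. Ror1, a receptor tyrosine kinase gene that was singled out after its values were seen, was likewise touched by 7 members, and no WT H3K27ac peak reached it.

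The X chromosome had a higher share of members than any autosome. On it 126 of 246 KO peaks were members (51.2%, 45.0 to 57.4), against 29.3% of autosomal peaks, where the share ran from 26.7% on chromosome 8 to 31.6% on chromosome 7. Among peaks below the middle of the KO list by signal the shares were 72.1% on X (119 of 165) and 56.4% on autosomes. Of the whole lists, X held 1.71% of peaks in KO HR H3K27ac, 1.37% in WT HR and 0.902% in WT normoxia. The sex of the animals is not given in the labels used here, and its part in these shares was not tested.

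Relative to coding genes, members held a start site less often than the other peaks over the whole list, but not among peaks of low signal. An annotated start site fell in 1177 members (27.5%, 26.2 to 28.9) and in 37.5% of the other peaks (36.6 to 38.4). With the KO list cut into 5 equal bins of rising signal, a start site fell in 27.8% of members and 10.8% of others in bin 1, in 29.7% (27.6 to 32.0) and 27.2% (24.8 to 29.7) in bin 2, and in 20.4% and 38.6% in bin 3. Bins 1 and 2 hold 2104 and 1614 of the members. A further 1979 members (46.2%) lay in a gene without a start site, a share close to the 47.6% of the other peaks, and 1124 (26.3%, 24.97 to 27.6) lay outside genes, against 14.9% (14.2 to 15.6). Start sites were known for 17492 of the 21887 coding genes, so some members counted as within a gene may hold a start site. The median percentile of total signal hardly varied with position, at 20.1 for members at start sites, 19.98 for those within genes and 21.6 for those outside.

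H3K9ac was found at a minority of members, but at most of those that hold a start site. A KO HR H3K9ac peak touched 1099 members (25.7%, 24.4 to 27.01), against 59.1% of the other knockout peaks (58.1 to 60.02). H3K9ac of WT HR touched 977 members (22.8%, 21.6 to 24.1) and that of WT normoxia touched 628 (14.7%, 13.6 to 15.8), against 57.2% and 56.9% of the other peaks. Among members with a start site, KO H3K9ac was present at 68.1% (65.3 to 70.7), WT HR H3K9ac at 60.8% (58.0 to 63.6) and WT normoxia H3K9ac at 38.7% (456 of 1177). The same 3 lists touched 12.8%, 11.9% and 7.73% of members within genes and 4.004%, 2.31% and 1.69% of those outside genes. Outside genes the gap to the other peaks was widest in proportion, since KO H3K9ac touched 41.5% of those (39.1 to 44.0).

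FLAG-ACLY of WT HR was likewise most frequent at members with a start site. Over the whole list it touched 389 members (9.09%, 8.26 to 9.99) and 16.2% of the other peaks (15.5 to 16.9), an order that turned in the lowest signal bin, where it touched 9.08% of members (7.92 to 10.4) and 4.49% of the others (3.24 to 6.18). In bin 2 the shares were 9.60% and 8.12%. Among peaks with a start site the order did not clearly turn. There FLAG-ACLY touched 19.9% of members (16.8 to 23.3) and 19.0% of others (12.1 to 28.7) in the lowest signal bin. In bin 2 it touched 17.3% and 18.6%. In the narrowest of 5 equal bins by width the shares over all peaks were 9.43% and 10.2%. By position over the whole list, FLAG-ACLY touched 18.7% of members with a start site, 5.05% of those within genes and 6.14% of those outside genes. Of the 389 members with FLAG-ACLY, 185 also had WT HR H3K9ac, and 156 had H3K9ac in none of the 3 lists. The WT normoxia FLAG list holds 1 peak, which touched no member.

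**Figure D3:**
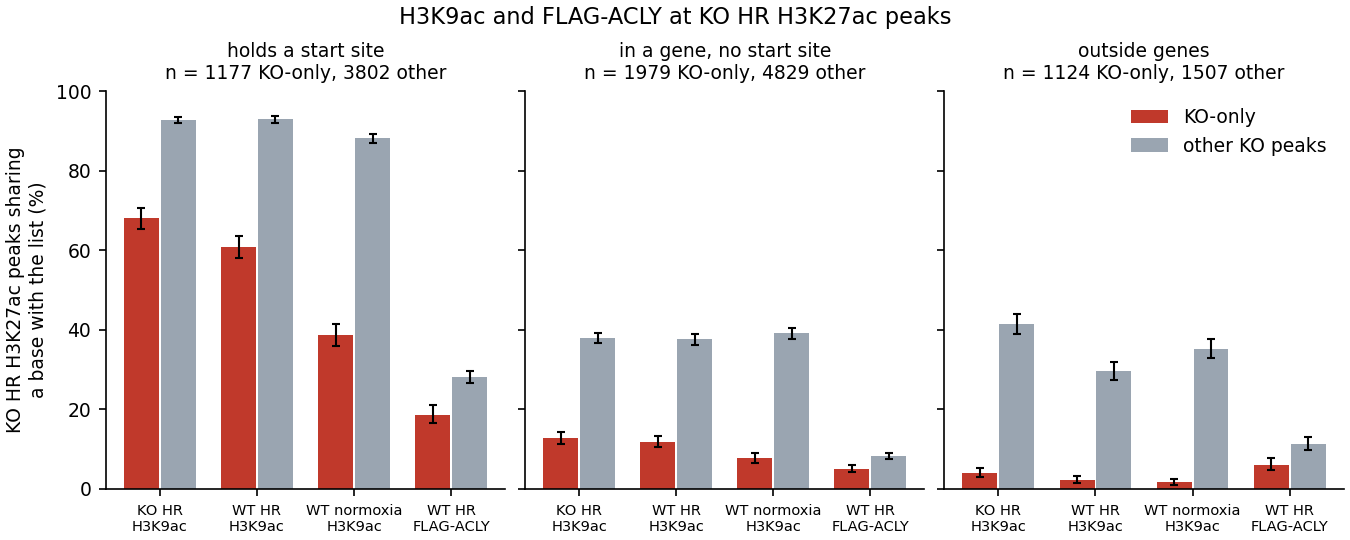
Share of KO HR H3K27ac peaks (y axis, %) that share a base with each H3K9ac or FLAG-ACLY list (x axis), for KO-only (red) and other (grey) peaks in 3 positions. Error bars are 95% Wilson intervals, and in each panel the red bars are lower than the grey ones beside them.

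Because members are weak peaks, they were also set beside other peaks of like signal. In the lowest of the 5 bins, KO H3K9ac touched 24.4% of members (22.6 to 26.3, of 2104) and 10.9% of the other peaks (8.90 to 13.3, of 780), the reverse of the order over the whole list. WT HR H3K9ac touched 22.8% of members there (21.0 to 24.6) and 20.9% of the others (18.2 to 23.9). Among the peaks of that bin with a start site, KO H3K9ac touched 64.9% of members (60.9 to 68.7) and 60.7% of others (50.02 to 70.5), intervals that overlap. WT HR H3K9ac touched 61.0% (56.9 to 64.8) and 73.8% (63.5 to 82.0) of them, intervals that also overlap. WT normoxia H3K9ac kept the order of the whole list, with 37.8% of those members (34.0 to 41.8) and 69.0% of the others (58.5 to 77.9). In bin 2 KO H3K9ac touched 29.1% of members and 30.8% of others, and in bin 3 it touched 21.0% and 47.4%. WT HR H3K9ac touched 25.5% and 37.0% in bin 2. Among the bin 2 peaks with a start site, WT HR H3K9ac touched 63.5% of members (59.1 to 67.7) and 83.5% of others (79.2 to 87.0). KO H3K9ac touched 73.5% and 79.1% of the start-site peaks in bin 2, and 61.9% and 89.9% of those in bin 3. With the list cut into 5 equal bins of rising width instead, the order of the whole list did not turn. In the narrowest bin KO H3K9ac touched 31.8% of members (29.8 to 33.9) and 39.3% of others (36.2 to 42.5). WT HR H3K9ac touched 27.7% and 41.6% there. In the next width bin KO H3K9ac touched 27.1% and 49.4%.

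The H3K9ac lists sort the members into sites with H3K9ac in WT, sites with both marks in KO alone, and sites with H3K27ac alone. H3K9ac appeared in no list at 3001 members (70.1%), of which 282 held a start site. At 1043 members (24.4%) at least 1 WT list had H3K9ac. KO H3K9ac was present as well at 863 of them, and all 3 lists were present at 519. At 236 members (5.51%), 147 of them with a start site, H3K9ac was present in KO HR and in neither WT list. Seen from the H3K9ac side, 1217 of 8837 KO H3K9ac peaks (13.8%) shared no base with a WT H3K9ac peak. Of these 1217, 237 (19.5%, 17.3 to 21.8) touched a KO-only H3K27ac peak, against 11.3% (10.6 to 12.1) of the other 7620 KO H3K9ac peaks. A further 617 touched another KO H3K27ac peak and 363 touched none. These shares set KO lists against WT lists, which differ in form for both marks.

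The start sites covered by members lay in WT H3K9ac peaks more often than start sites in no KO or WT H3K27ac peak. The latter were chosen for lacking KO H3K27ac, which members carry by the rule, so these shares are descriptions. The members covered 1474 start sites of 1307 genes, and 62.7% of these (60.2 to 65.1) lay in a WT HR H3K9ac peak. Of the 14151 start sites in no KO or WT H3K27ac peak, 7.57% did (7.14 to 8.02). Base composition differed between these sets, so the comparison was repeated among CpG-rich promoters, those whose observed CpG pairs reached 0.6 of the number that their C and G content predicts. There WT HR H3K9ac covered 70.5% of start sites in members (67.8 to 73.1) and 18.6% of those in no H3K27ac peak (17.5 to 19.7). At the remaining, CpG-poor promoters the shares were 36.6% (31.6 to 41.8) and 2.01% (1.74 to 2.31). FLAG-ACLY covered 18.7% of start sites in members and 2.69% of those in no H3K27ac peak. The start sites in other knockout peaks had WT HR H3K9ac at 93.1%, above those in members.

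By sequence the promoters in members resembled those in the other knockout peaks. CpG-rich promoters made up 77.0% of the former (74.8 to 79.1), 77.2% of the latter (76.0 to 78.3), 33.9% of promoters in no KO peak and 47.7% of all 21263. Median GC content was 60%, 62%, 53.7% and 56.3% in the same order. GGGCGG occurred in 62.7% of promoters in members (60.2 to 65.1), in 66.1% of those in other KO peaks and in 46.2% of all. CCAAT occurred in 42.6% (40.1 to 45.1), 35.7% (34.4 to 37.0) and 38.2%, and TATAAA in 7.19%, 6.78% and 12.6%. TGACGTCA occurred in 3.87%, 3.58% and 2.23%, CACGTG in 10.5%, 11.01% and 7.84%, and TGANTCA in 3.93%, 5.18% and 6.99%. The other 4 motifs occurred in few promoters of members: TGTTTAC in 3.12% (all promoters 3.01%), CAAAGTCCA in 0.475% (0.451%), TTGCGCAA in 0.136% (0.221%) and the PPAR-RXR repeat in 0 of 1474 (0.0470%). Among promoters in members, 66.5% of those without KO H3K9ac were CpG-rich and 86.6% of those with WT HR H3K9ac were.

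A gene counts as reached when a peak touches its body or the 1000 bp on either side. Members reached 2958 of 21887 coding genes (13.5%), and 3198 members (74.7%, 73.4 to 76.0) touched a coding gene, against 85.7% of the other peaks. Of the genes reached, 1704 (7.79% of all coding genes) were reached by no WT H3K27ac peak. They are 11.3% of the 15102 genes that WT H3K27ac did not reach. For 1058 of these 1704 genes the member held a start site, and at 649 of the 1058 (61.3%) WT HR H3K9ac was present there. KO H3K9ac was present at 685 (64.7%) and FLAG-ACLY at 201 (19.0%), while 126 (11.9%) had KO H3K9ac and no WT H3K9ac.

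The 33 gene lists used here hold 568 matched genes, of which 248 were not reached by WT H3K27ac and 53 of these were reached by a member (21.4%, beside 11.3% over all coding genes). At 32 of the 53 the member of most signal held the gene's own start site, at 28 it had KO H3K9ac, at 16 WT HR H3K9ac and at 14 FLAG-ACLY. The lists were drawn up with results of these data known, so their counts are descriptions. Where several members touched a gene, the rank and marks given are those of the member with the most signal unless another is named.

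**Figure D4:**
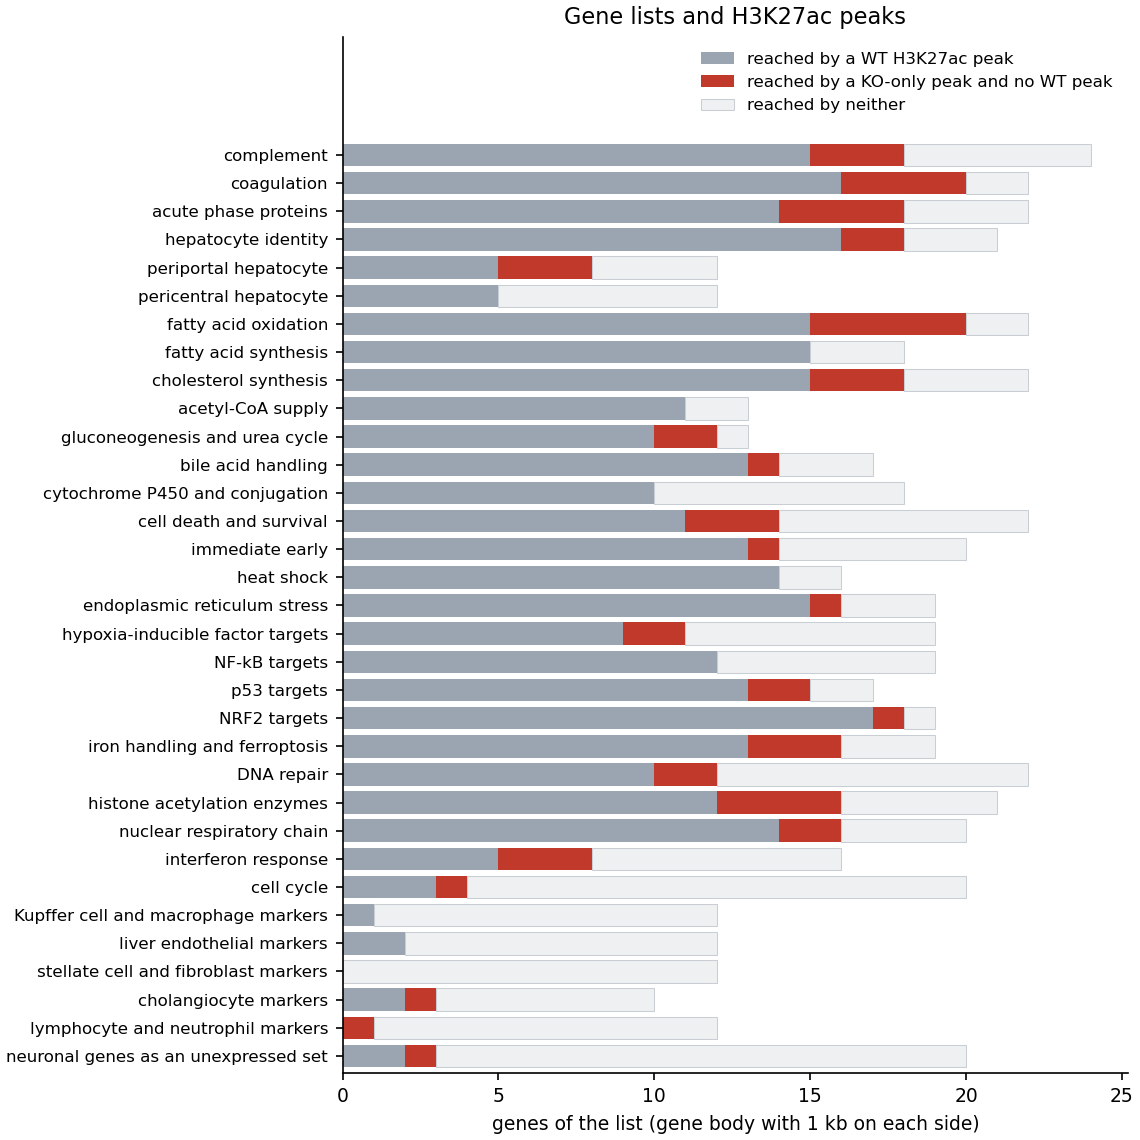
Genes of each of the 33 lists (x axis, number of genes; y axis, the lists) split by whether a WT H3K27ac peak (grey), a KO-only peak and no WT peak (red) or neither (white) reached the gene body with 1 kb on each side. Red reaches 5 genes in fatty acid oxidation and 4 in coagulation. It is missing, among others, in pericentral hepatocyte, fatty acid synthesis and acetyl-CoA supply genes, where WT peaks had left only 7, 3 and 2 genes.

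Among genes for proteins that the liver secretes into blood, members reached 4 of the 6 coagulation genes that WT H3K27ac had not reached. They also reached 3 of 9 such complement genes and 4 of 8 such acute phase genes. The share over all coding genes not reached in WT was 11.3%, and the lists were drawn up with results known. F7, the protease that starts clotting on tissue factor, and F10 lie side by side and shared a member at chr8:13035584-13041127 (rank 7923), which covers the end of F7 and the start of F10. That region already carried H3K9ac in WT HR and WT normoxia and FLAG-ACLY in WT HR, but had no KO H3K9ac peak. A second member at the start of F7 (chr8:13025183-13027815, rank 13971) had none of these. F9, the X-linked factor whose loss causes haemophilia B, and C9 each had a member at the start site (ranks 9989 and 6873) with no H3K9ac or FLAG-ACLY peak in any list. Plg, the precursor of the clot-dissolving protease plasmin, had one at rank 12143, and Serping1, the inhibitor that restrains the first complement protease, one at rank 10316, both without H3K9ac. C4b, a complement component of the classical pathway, had FLAG-ACLY at its member (rank 11852) and no H3K9ac. The acute phase genes were Orm3, Itih4, Saa4 and Orm2, all with the start site in the member and with ranks from 11299 to 13764. Only Itih4, an inter-alpha-trypsin inhibitor chain, had H3K9ac there, in KO alone. Of the 11 genes, then, 1 had KO H3K9ac, and WT H3K9ac occurred only at the region shared by F7 and F10.

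Among genes of fuel metabolism, members reached 5 of the 7 fatty acid oxidation genes that WT H3K27ac had not reached. Acadvl, the first dehydrogenase for very long chains (rank 9884), and Slc25a20, the carrier of acylcarnitines into mitochondria (rank 8626), held a start site in the member with H3K9ac in KO and in neither WT list. Fgf21 (rank 7604) had a member at its start site with no H3K9ac peak in any list. Ehhadh, a peroxisomal oxidation enzyme, had FLAG-ACLY alone at its larger member, away from the start site (rank 10234). A second member over the Ehhadh start site (rank 13058) also had FLAG-ACLY and no H3K9ac. In cholesterol synthesis, members reached Ebp, Hsd17b7 and Lss out of 7 genes not reached in WT, each at the start site. Ebp and Hsd17b7 had KO H3K9ac and no WT H3K9ac, and Hsd17b7 and Lss had FLAG-ACLY. Ass1 and Arg1, enzymes of the urea cycle, and Pigr, the carrier of polymeric antibody into bile, were the 3 of 7 periportal genes. All 3 had KO H3K9ac at the member, and of these Ass1 also had WT HR H3K9ac and Arg1 also had FLAG-ACLY. No member added a gene in fatty acid synthesis, acetyl-CoA supply, pericentral hepatocyte genes or cytochrome P450 and conjugation, where WT H3K27ac had left 3, 2, 7 and 8 genes. Over all coding genes not reached in WT the share added was 11.3%, so lists this short may well gain none.

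At genes of the nucleus and of stress responses, H3K9ac at the members varied from gene to gene. In the list of enzymes that add or remove histone acetyl groups, members reached 4 of 9 genes not reached in WT: Ncoa1, a coactivator with acetyltransferase activity, the deacetylase Sirt1, the acetyltransferase Kat5, and Hdac2. Hdac2 had H3K9ac in all 3 lists and FLAG-ACLY at the member (rank 14268), whereas Ncoa1 had FLAG-ACLY alone and Sirt1 and Kat5 had neither. In cell death, the genes that members reached included Casp8, the initiator caspase of death receptors, and Mlkl, the effector of necroptosis. Casp8 had H3K9ac in KO and WT HR. Mlkl had it in KO alone, at a member that ranked 14411 of 14418. The respiratory chain gene Cox6c, the oxidative folding enzyme gene Pdia6, the cell cycle kinase gene Aurka and the hypoxia target Adm, a vasodilator peptide, had H3K9ac in all 3 lists. Sesn2, a stress-induced inhibitor of growth signalling, and Ifih1, a sensor of double-stranded RNA, did so too. Ankrd37 (hypoxia targets), Fosb (immediate early), Aifm2 and Tfrc (ferroptosis and iron uptake) and Eda2r (p53 targets) had H3K9ac in KO and in neither WT list. FLAG-ACLY was also present at the members of Ankrd37, Fosb and Tfrc, and at that of Aurka. The members at Nqo1, Chek1, Hjv, Ddx58, Apoh and Onecut1 had no H3K9ac peak. Irf9, a subunit of the interferon-activated transcription factor, had WT normoxia H3K9ac alone. The member assigned to Atr lay beyond the gene body, within 1000 bp, and held a start site there. No member added a gene to the NF-kB target or heat shock lists, where WT H3K27ac had left 7 and 2 genes (beside 11.3% added over all coding genes not reached in WT).

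Members also fell in 1254 of the 6785 genes that a WT H3K27ac peak reached elsewhere (18.5%), 55 of them in the lists. At 6 of these 55 the member of most signal held the start site, at 11 it had KO H3K9ac, at 10 WT HR H3K9ac and at 3 FLAG-ACLY. The genes that follow were picked after their values were seen. In bile acid handling they were 6 of the 13 genes reached in WT: Cyp7b1, which hydroxylates oxysterols, was touched by 4 members, and the transporter genes Slco1a1, Slco1a4, Slco1b2, Abcc2 and Abcb4 by 1 each. None of those largest members had H3K9ac in any list. In fatty acid oxidation they were 6 of 15, with 2 members each in Cpt1a, the carnitine transferase that admits fatty acids to mitochondria, and Ppara, the transcription factor that directs the pathway. Acadl, a dehydrogenase for long chains, had KO H3K9ac at its member and no WT H3K9ac. In complement, Hc (component C5) held 2 members and C8a held 1, both without H3K9ac at the member of most signal. Among histone acetylation enzymes they were 7 of 12, and at 3 of the 7 the largest member had H3K9ac in at least 1 list. Those with H3K9ac include Ncoa3, a coactivator gene (KO and WT HR), and Kat6a, an acetyltransferase gene (WT HR and WT normoxia). Crebbp, the acetyltransferase CBP (1 member, rank 12974), and Kat6b, another acetyltransferase (2 members, the larger at rank 4852), had none.

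To each list of markers of other cell types, members added 0 or 1 gene. Members added 0 of 12 Kupffer cell and macrophage genes, 0 of 12 liver endothelial genes and 0 of 12 stellate cell and fibroblast genes, of which WT H3K27ac had left 11, 10 and 12. Over all coding genes not reached in WT the share added was 11.3%. Of the 8 cholangiocyte genes not reached in WT, 1 was added (12.5%). It was Sox9, a transcription factor of bile duct cells, whose member had FLAG-ACLY and H3K9ac in all 3 lists. Of the 12 lymphocyte and neutrophil genes, all not reached in WT, 1 was added (8.33%), namely Cd79a. The member within 1000 bp of Cd79a also held a start site outside that gene's body. In a list of neuronal genes, 1 of the 18 not reached in WT was added (5.56%). Hepatocyte identity genes had been reached in WT at 16 of 21, and members added Apoh and Onecut1.

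By total signal the largest members lay at 2 loci. At Ugt1a, a cluster of first exons that share a common end, the member at chr1:88210606-88226351 (15746 bp, rank 994) covers the start of Ugt1a1 and the shared end of the cluster. The H3K27ac peaks of WT HR ended upstream at chr1:88101751-88152240 and chr1:88155411-88163480, the nearer WT peak, that of normoxia, being 40755 bp away from the member. KO H3K9ac covered 4676 bp of the member and WT H3K9ac none. The member at Mroh2a and Hjurp (chr1:88258534-88270334, rank 3280) lies next along the chromosome and had 11259 of its 11801 bp under KO H3K9ac, again with no WT H3K9ac. These were also the 2 largest members with KO H3K9ac and no WT H3K9ac, the next being outside genes at chr13:74529467-74534512 (4649 bp under KO H3K9ac).

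At Cdk8, a kinase of the Mediator complex, 2 members lay side by side, at chr5:146230744-146241947 over the start site (rank 3575) and at chr5:146242785-146255129 within the gene (rank 2178). They filled a stretch between WT HR H3K27ac peaks at chr5:146218981-146225620 and chr5:146262851-146279390. In WT HR, H3K9ac covered 6437 bp of the first and 9919 bp of the second, and FLAG-ACLY covered 2050 bp of the second. KO H3K9ac covered 3173 bp of the first and none of the second. At this locus the members thus coincided with H3K9ac that was listed in WT.

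The rest of the 12 largest showed little other acetylation. They lay at Fam20a, at Amdhd1 (histidine breakdown) with Ccdc38, in Ctsc (a lysosomal protease), at Slc17a3 (an organic anion transporter), at Upp2 (uridine breakdown), in Chrm3 (a muscarinic receptor) and outside genes at chr14:54294949-54301304 and at the chromosome 13 site named above. Except for that chromosome 13 site, none had H3K9ac in any list. The member at Upp2 had FLAG-ACLY over 4280 of its 8714 bp. The other members of largest signal with FLAG-ACLY, after those at Cdk8 and Upp2, lay in Oxsr1 (an oxidative stress kinase), over Zfp395, in Tex14 and outside genes at chr5:8871386-8875039. WT HR H3K9ac covered all 8436 bp of the member at Zfp395, which was also the next largest with that mark after those of Cdk8, and all 7093 bp of that in Tex14. The largest outside genes, after the chromosome 14 and 13 sites, was at chr3:122193689-122200899, with no other mark.

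**Figure D5:**
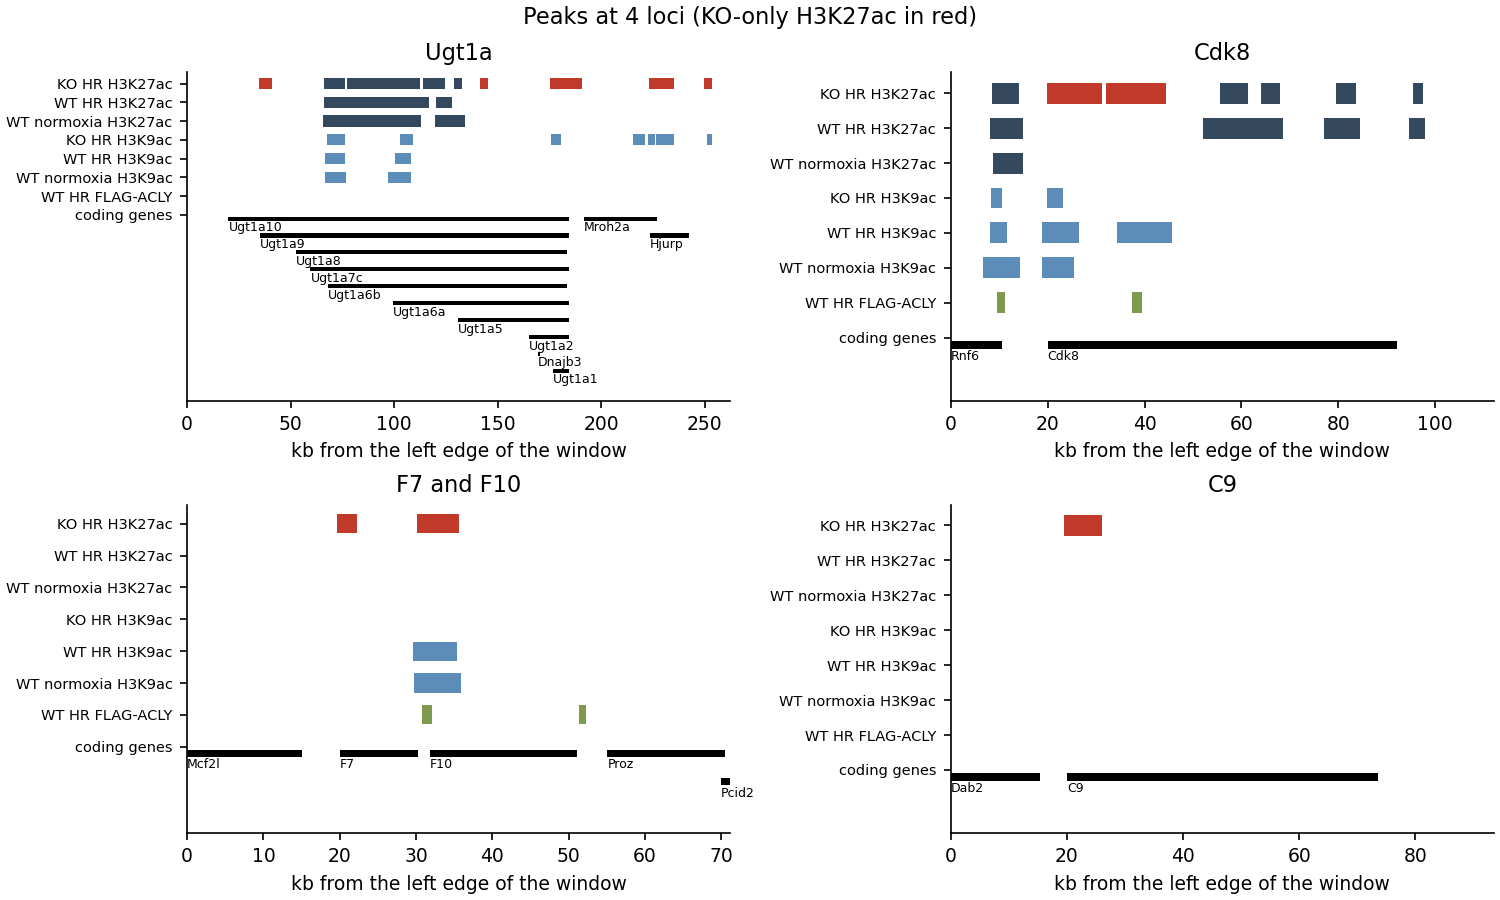
Peaks of the 7 lists (rows) and coding genes (black) at 4 loci, with position in kb from the left edge of each window on the x axis. KO-only H3K27ac peaks are red, other H3K27ac peaks dark, H3K9ac blue and FLAG-ACLY green: at Ugt1a KO H3K9ac lies under 3 of the 5 red peaks and WT H3K9ac under none, at Cdk8 and at F10 WT H3K9ac lies under red peaks, and at C9 the red peak stands alone.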

How the data were processed

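CUT&RUN samples were grouped by the genotype, treatment and antibody in the labels. The authors deposited 1 peak list per sample, with a total and a maximum signal for each peak. Per the submitters' processing notes the build was mm10 and Trimmomatic was used. The aligner, peak caller and signal scale are not given in the sources used here, so signal served only to rank peaks within a list. Overlap meant at least 1 shared base. Genes were the 21887 coding genes of RefSeq GRCm38.p6 with 1000 bp added on each side, and start sites and promoters came from RefSeq tables of that assembly. Calculations used Python 3.11.15 with pandas 2.3.3 and numpy 2.4.6. The overlap code was tested on simulated intervals, and bedtools 2.31.1 gave the same 4280 regions. Members, gene lists and comparisons were chosen with earlier results of these data known. Regions were named by rank in total signal within fixed classes (12 largest members, the largest with each mark, extreme gaps, most-touched genes), and genes were named per list, up to 6 by signal; a few that this rule names are not reported here. The planned comparison of RNA was not run, because no table used here pairs the transcript identifiers with genes. The RNA and 3 IgG samples were not analysed here. Alternatives changed the WT reference, gap, width, signal, overlap and gene window, and counting autosomes alone was added after seeing the data.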

Additional observations from a re-analysis of the deposited data

How the results depend on the processing

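With 1 library per condition no value has a replicate error, depth is unknown, and the lists of the genotypes differ in form. Of 49 alternative values, 35 stayed within 1.5 times a reported count or within the 95% interval of a reported share. Among them, the number of members was 3237 with the WT H3K9ac lists added to the WT reference, 3586 with WT peaks widened by 5000 bp and 4150 on autosomes alone, the last an alternative chosen after seeing the data. The other 14 moved. Keeping the KO peaks above the list's middle by signal left 189 members, with KO H3K9ac at 20.6%, WT HR H3K9ac at 12.2%, a coding gene at 69.3% and 72 genes not reached in WT. Adding the WT H3K9ac lists to the WT reference gave KO H3K9ac at 7.29%, FLAG-ACLY at 6.02%, a coding gene at 67.5% and 847 genes not reached in WT, and leaves no member with WT HR H3K9ac by construction. Widening WT peaks by 5000 bp gave KO H3K9ac at 27.9% and WT HR H3K9ac at 24.6% of members, and the WT HR list alone as reference gave 23.8% and 21.5%. Adding 5000 bp to genes gave a coding gene at 77.9% of members. No paired analysis was possible because the values come from no test and each condition has 1 CUT&RUN library. The RNA alternatives (DESeq2, no count filter, replicate block and each replicate left out) were not run.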
